A study of Mus musculus with 17 samples.

Results

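Bbc3 and 8 other p53 target genes, namely Cdkn1a, Mdm2, Ccng1, Bax, Trp53inp1, Sesn2, Phlda3 and Eda2r, were followed in the hippocampus of 17 mice. They are 9 of the 55385 genes in the deposited tables, found there by symbol, and all 9 passed the filter on low counts that left 18983 genes for testing. Bbc3 was selected on its count-based expression level, low in 1 genotype of these same mice, so its values in that genotype are given as a description with no test. The other 8 were chosen as p53 targets. Messenger RNA with a poly(A) tail was sequenced from hippocampus tissue that carried no treatment. The 6 wild-type mice (WT) were C57BL/6J. The 6 Dp16 mice carry a duplication of the part of mouse chromosome 16 that corresponds to much of human chromosome 21, and serve as a model of trisomy 21. The 5 Dp16_2xIFNRs mice carry that duplication too, but their interferon receptor genes are at normal dosage. The question the 3 genotypes address is what the extra receptor copies add to the duplication. Each group held 3 females; the males numbered 3, 3 and 2. Ages were 17.1 to 18.0 weeks.

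The protein p53 is a transcription factor that cells stabilise after DNA damage and other stress, and it binds a DNA element built of a pair of adjacent 10-base half-sites. Its targets stop the cell cycle, start apoptosis, repair damage, adjust metabolism and feed back on p53 itself. In neurons, Bbc3 (also called PUMA) is known as a main link from p53 to cell death: it is a BH3-only protein that neutralises the survival proteins of the BCL2 family and so frees BAX to open the outer mitochondrial membrane. None of the 9 genes lies on chromosome 16, so none has an extra copy in Dp16 mice.

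The p53 element was looked for in RefSeq promoter windows of GRCm38.p6, which run from 250 bases before to 50 bases after each transcription start. Windows were found for 8 of the 9 genes, 11 in all. A match to the p53 half-site consensus, which reads the same on both strands, was counted, as were adjacent half-sites with at most 3 mismatches over 20 bases. The central CWWG of each half-site, where W is A or T, had to match exactly. That rule was set after sequences had been seen. Both genes on which the results turn most, Cdkn1a and Bbc3, held such a 20-base element, in the window of the first start. They are shown with 20 bases on each side, 5′ to 3′, with the element in capitals.
Bbc3, chr7:16309466-16309525, plus strand: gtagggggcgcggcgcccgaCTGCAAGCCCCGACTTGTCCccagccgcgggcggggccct
Cdkn1a, chr17:29090908-29090967, plus strand: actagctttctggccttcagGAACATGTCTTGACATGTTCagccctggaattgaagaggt
The Bbc3 element lay 97 to 78 bases before the start and had 3 mismatches. The Cdkn1a element lay 51 to 32 bases before the start and had 1 mismatch. Such an element with at most 3 mismatches was in 0.572% of all 32851 windows, and one with at most 1 mismatch in 0.0548%. Bax, Mdm2 and Ccng1 each held a single half-site without mismatch. The first Cdkn1a window held 2, of which 1 is part of the 20-base element. Of all windows, 8.36% held 1 or more. The 3 single half-sites are shown for comparison, with the half-site in capitals.
Bax, chr7:45467070-45467119, minus strand: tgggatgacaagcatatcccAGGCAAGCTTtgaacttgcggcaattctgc
Mdm2, chr10:117710915-117710964, minus strand: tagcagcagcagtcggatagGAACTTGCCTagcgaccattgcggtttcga
Ccng1, chr11:40755442-40755491, minus strand: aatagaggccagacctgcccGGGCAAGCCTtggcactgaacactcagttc
The windows of Sesn2, Phlda3 and Eda2r held neither, nor did the further windows of Bbc3 and Cdkn1a. A match describes letters only, and p53 binding was not measured here.

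Bbc3 was highest in WT, lower in Dp16 and lowest in Dp16_2xIFNRs. In CPM (read counts scaled to a common library size), its lowest, median and highest WT values were 6.55, 8.49 and 9.39. In Dp16 they were 6.22, 6.71 and 7.33. The 5 Dp16_2xIFNRs values were 4.88, 7.27, 4.86, 5.37 and 5.45. All but replicate 2 of the Dp16_2xIFNRs mice were below every mouse of the other genotypes, and with replicate 2 the ranges overlapped. Group means were 8.17 ± 1.13 (SD, n = 6), 6.75 ± 0.557 (SD, n = 6) and 5.57 ± 0.993 (SD, n = 5) CPM. The fitted log2 fold change of Dp16_2xIFNRs was -0.56 ± 0.12 (SE) against WT and -0.28 ± 0.12 (SE) against Dp16. Without replicate 2 these were -0.67 and -0.39. Each Bbc3 value rests on 151 to 300 read pairs, for which counting alone gives a coefficient of variation of 6.75%. Over all 17 mice the coefficient of variation was 20.1%.

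**Figure D1:**
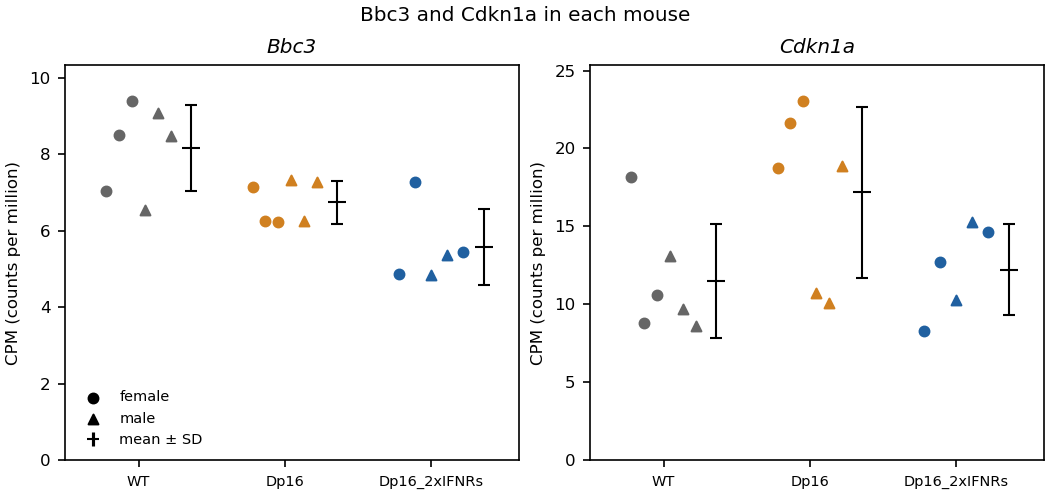
Bbc3 (left) and Cdkn1a (right) in CPM on linear axes from 0, for each WT, Dp16 and Dp16_2xIFNRs mouse, with circles for females, triangles for males and the group mean ± SD beside them. Bbc3 in 4 of 5 Dp16_2xIFNRs mice lies at 4.86 to 5.45 and in the other at 7.27; Cdkn1a in Dp16 falls into 4 mice at 18.8 to 23.0 and 2 at 10.1 and 10.7.

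The rule did not use Bbc3 in Dp16 against WT. There it differed by -0.28 ± 0.11 (log2, SE), with an interval of -0.51 to -0.037 (95%). In edgeR's quasi-likelihood test over all genes, the unadjusted p was 0.0260 and the adjusted p 0.462, so the difference did not pass. The WT mice also set the comparison by which Bbc3 was chosen, so this contrast is not independent of that choice. By sex, as a description of the same mice by which Bbc3 was chosen, male means were 8.03, 6.95 and 5.11 CPM in WT, Dp16 and Dp16_2xIFNRs, and female means were 8.32, 6.54 and 5.87 CPM. In 5 pairs of mice from different genotypes, the label identifiers share their second part, whose meaning is not given. The Bbc3 ratio of Dp16_2xIFNRs over Dp16 was 0.785 and 0.762 in such pairs, that of Dp16_2xIFNRs over WT 0.741 and 0.774, and that of Dp16 over WT 0.738. The ratios with Dp16_2xIFNRs hold the values by which Bbc3 was chosen, so they are a description and no replication. As deviations from genotype means over all tested genes, such pairs had a mean correlation of 0.0126, beside 0.00047 in 91 other pairs.

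Levels of tissue markers differed among libraries and are given beside these values. The summed CPM of 10 choroid plexus markers was 58.0, 66.2 and 100.1 in WT replicate 6, Dp16 replicate 6 and Dp16_2xIFNRs replicate 5, against 2403 to 6669 in the other 14. Without those 3 libraries the direction of every Bbc3 difference was the same. WT replicate 4 had the highest sum of 8 thalamus and habenula markers, 485 CPM against at most 170 elsewhere, and the lowest WT level of Bbc3. Over 17 mice, with each value taken as its deviation from the genotype mean, Bbc3 and that sum had r = -0.536 (rho = -0.456, permutation p = 0.0201 and 0.0563, adjusted over 33 relations 0.166 and 0.372). Without the 2 mice farthest from the median of the marker sum r was -0.284. Within WT, Dp16 and Dp16_2xIFNRs r was -0.781, -0.507 and -0.022. Marker lists also differed between genotypes, and those with the largest medians in Dp16_2xIFNRs against WT are given. The 8 fibroblast markers had a median log2 fold change of 0.60. All 8 were above 0, and 5 had an edgeR unadjusted p under 0.05 (background higher 8.44%). The 7 tested thalamus and habenula markers had -0.65, with 6 below 0 and 3 lower by that p (background 8.60%). None was called, and their part in Bbc3 was not tested. In bulk tissue, fewer cells of a type and less RNA per cell cannot be told apart.

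The 4 interferon receptor genes followed their labels. Ifnar1, Ifnar2, Ifngr2 and Il10rb were 1.45 to 1.57 times higher in Dp16 than in WT, with edgeR adjusted p from 8.81e-07 to 0.0146. In Dp16_2xIFNRs they were at 0.984 to 1.11 times the WT level, and none of the 4 passed. Against Dp16 they were at 0.626 to 0.713 times the level. There Ifnar1, Ifnar2 and Ifngr2 passed, with edgeR adjusted p from 0.000136 to 0.00329, and Il10rb did not (edgeR adjusted p = 0.277). Library totals were 30382648 to 33148281 counts. Among all 18983 tested genes, 102 were called in Dp16 against WT, 186 in Dp16_2xIFNRs against WT, 3 in Dp16_2xIFNRs against Dp16 and 13 between females and males, at an adjusted p under 0.05. The 3 called in Dp16_2xIFNRs against Dp16 were Ifnar1, Ifnar2 and Ifngr2, all lower.

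No p53 target among the 9 passed in any comparison in which it was tested. In Dp16 against WT, 0 of 9 were called, against 0.537% of all tested genes. At an unadjusted p under 0.05 Cdkn1a was higher, 1 of the 8 genes other than Bbc3, against a background of 9.58%. Bbc3, lower, was under 0.05 too and is left out of that count because of how it was chosen. In Dp16_2xIFNRs against WT, 0 of the 8 genes other than Bbc3 were called (background 0.980%), and 0 of 8 had an unadjusted p under 0.05 (background 17.04%). In Dp16_2xIFNRs against Dp16, 0 of 8 were called (background 0.0158%), and Cdkn1a alone was under 0.05 unadjusted, lower (background 10.5%). That 0.0158% consists of the receptor genes Ifnar1, Ifnar2 and Ifngr2. DESeq2 and limma-voom gave the same numbers of genes, both adjusted and unadjusted. The ranges of no gene were apart in any genotype comparison, where 0.990%, 2.17% and 0.616% of all tested genes had ranges apart. The median log2 fold change of the 9 in Dp16 against WT was 0.030, beside -0.0059 over all genes. Of the 8 without Bbc3 it was -0.051 in Dp16_2xIFNRs against WT, beside 0.0043, and -0.059 in Dp16_2xIFNRs against Dp16, beside -0.0073. The 3 comparisons share mice, so their values for a gene are not independent of each other.

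**Figure D2:**
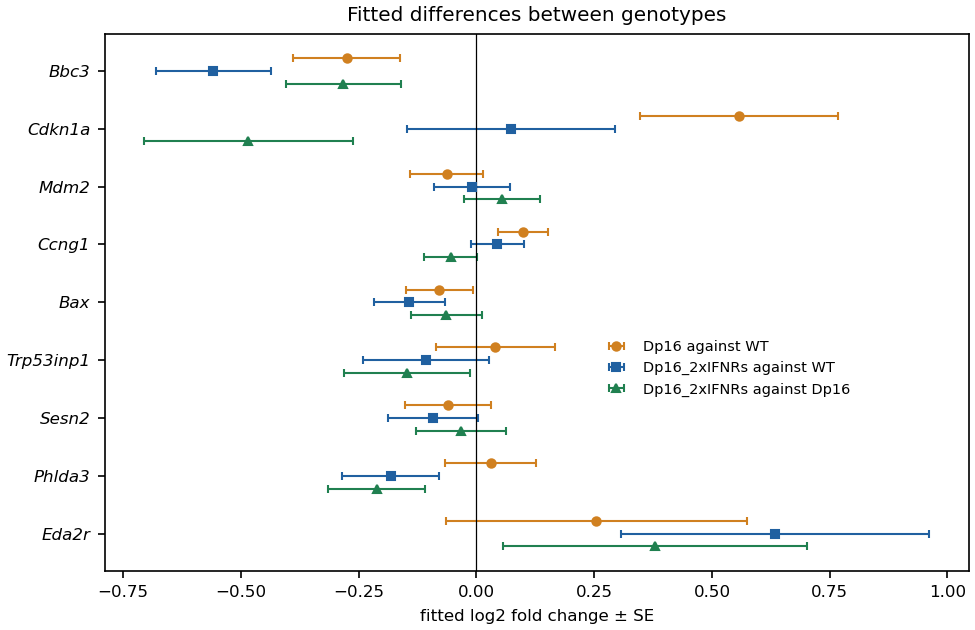
Fitted log2 fold change ± SE of each of the 9 genes in the 3 genotype comparisons (n = 6 WT, 6 Dp16, 5 Dp16_2xIFNRs). Bbc3 is below 0 in all 3 comparisons, while Cdkn1a is at 0.56 in Dp16 against WT and at 0.073 in Dp16_2xIFNRs against WT.

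Cdkn1a encodes p21, the inhibitor of cyclin-dependent kinases through which p53 halts the cell cycle. Its lowest, median and highest CPM were 8.63, 10.1 and 18.2 in WT and 10.1, 18.8 and 23.0 in Dp16. The 5 Dp16_2xIFNRs values were 8.31, 12.7, 10.3, 15.3 and 14.6. WT replicate 1 was high among its group and Dp16 replicates 4 and 5 were low in theirs, so all 3 ranges overlapped. The log2 difference of Dp16 from WT was 0.56 ± 0.21 (SE), with an edgeR unadjusted p of 0.0162 and an adjusted p of 0.406. In Dp16_2xIFNRs it was 0.073 ± 0.22 (SE) against WT (adjusted p = 0.900). Against Dp16 it was -0.48 ± 0.22 (SE), with an edgeR unadjusted p of 0.0419 and an adjusted p of 0.465. Cdkn1a had the widest spread of the 8 genes other than Eda2r, a coefficient of variation of 34.8% over all mice where counting gives 4.79%. Females had a mean of 21.1 CPM in Dp16 (18.8 to 23.0, n = 3) and males 13.2 CPM (10.1 to 18.9, n = 3), whose ranges overlap. In WT the female and male means were 12.5 and 10.5 CPM, and in Dp16_2xIFNRs 11.9 and 12.8 CPM.

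The feedback genes lay close together across genotypes. Mdm2 encodes the ubiquitin ligase that marks p53 for degradation, and had means of 50.5 ± 6.22 (SD, n = 6) CPM in WT, 48.4 ± 2.21 (SD, n = 6) in Dp16 and 50.2 ± 4.86 (SD, n = 5) in Dp16_2xIFNRs. The values ran from 40.6 to 57.7 in WT, which spans every mouse of the other groups. Its log2 differences were -0.063 ± 0.077, -0.0091 ± 0.081 and 0.054 ± 0.081 (SE) in Dp16 against WT, Dp16_2xIFNRs against WT and Dp16_2xIFNRs against Dp16. The interval of the second was -0.18 to 0.16 (95%). Ccng1 encodes cyclin G1, which works with a phosphatase on MDM2. Its lowest, median and highest CPM were 81.0, 85.1 and 97.5 in WT and 88.0, 93.1 and 95.6 in Dp16, and the Dp16_2xIFNRs values were 98.5, 77.3, 89.5, 89.1 and 88.4. WT replicate 6 was above every Dp16 mouse, and the remaining WT mice were below every one. The difference of Dp16 from WT was 0.099 ± 0.053 (log2, SE; edgeR adjusted p = 0.572).

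Bax, the pore-forming effector downstream of Bbc3, had lowest, median and highest CPM of 23.5, 26.4 and 29.98 in WT and 22.6, 24.8 and 28.5 in Dp16. The Dp16_2xIFNRs values were 26.5, 23.5, 21.7, 22.9 and 25.3. The ranges of all 3 genotypes overlapped. Its log2 difference was -0.14 ± 0.075 (SE) in Dp16_2xIFNRs against WT (edgeR adjusted p = 0.341; 95% interval -0.30 to 0.015). A same-strand gene, Gm45808, overlaps Bax in GENCODE M21 and had 0 to 2 counts per library. Trp53inp1 encodes a nuclear and autophagy-linked protein that promotes p53 activity. It ran from 16.0 to 22.7 CPM in WT, 15.3 to 26.4 in Dp16 and 14.3 to 21.7 in Dp16_2xIFNRs. Its differences of 0.040 ± 0.13, -0.11 ± 0.13 and -0.15 ± 0.13 (log2, SE) were smaller than 1.5 SE. The second was -0.034 without Dp16_2xIFNRs replicate 1, and the third -0.022 without Dp16 replicate 6.

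**Figure D3:**
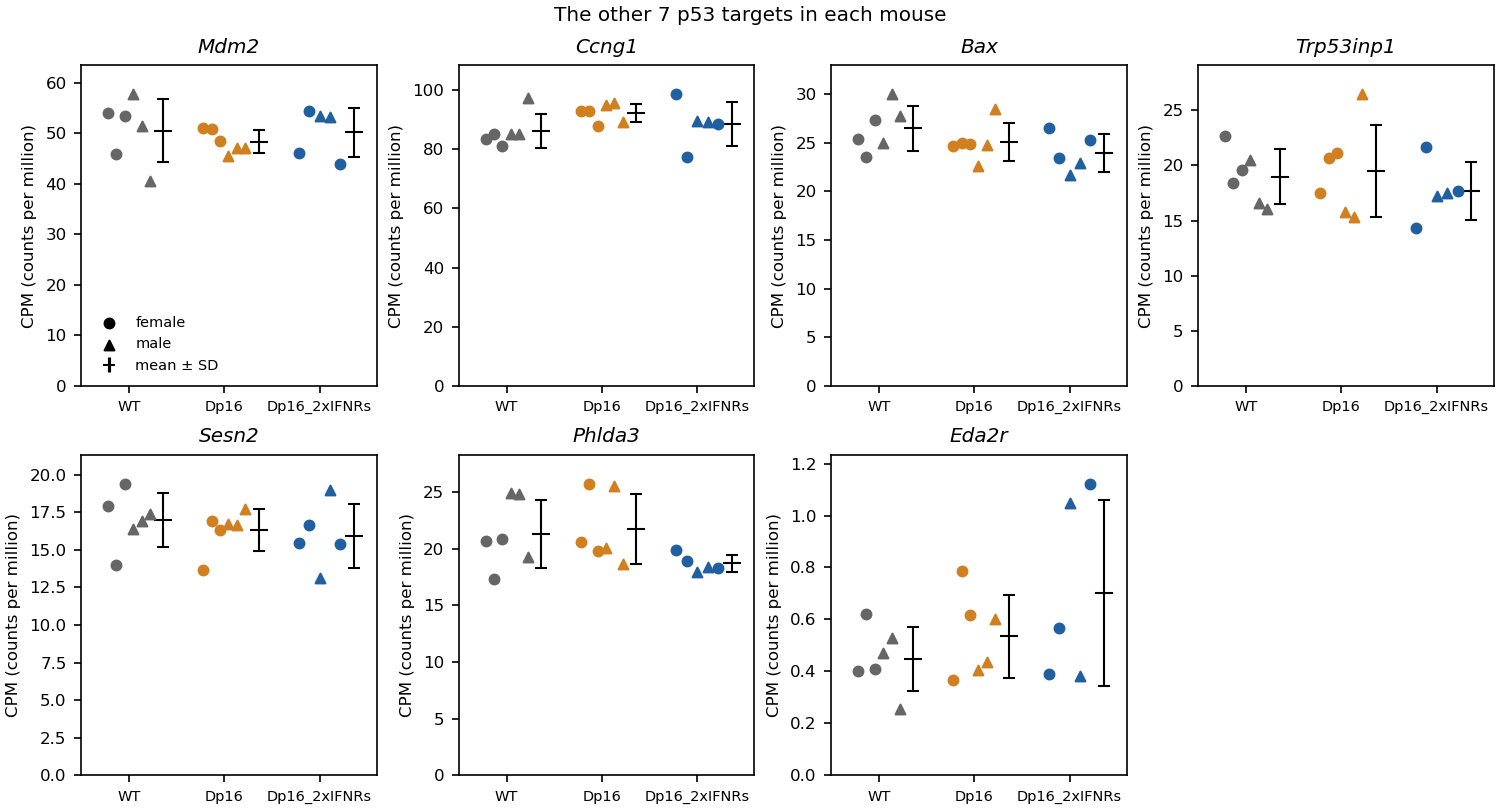
The 7 other p53 targets in CPM on linear axes from 0, for each WT, Dp16 and Dp16_2xIFNRs mouse, with circles for females, triangles for males and the group mean ± SD. The groups overlap in all 7 panels; the 5 Dp16_2xIFNRs values of Phlda3 lie within 18.0 to 19.9, and 2 Dp16_2xIFNRs mice have the highest Eda2r, 1.05 and 1.12.

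Sesn2 encodes sestrin 2, a stress sensor that restrains mTORC1. Its ranges were 14.0 to 19.4 CPM in WT, 13.7 to 17.7 in Dp16 and 13.1 to 19.0 in Dp16_2xIFNRs. The log2 differences from WT were -0.061 ± 0.091 in Dp16 and -0.093 ± 0.096 in Dp16_2xIFNRs (SE). Phlda3 encodes a pleckstrin-homology protein that keeps AKT from the membrane. Its lowest, median and highest CPM were 17.3, 20.8 and 24.9 in WT and 18.6, 20.3 and 25.8 in Dp16, and the Dp16_2xIFNRs values were 19.9, 19.0, 18.0, 18.4 and 18.3. Those 5 mice were within the WT range, and 3 of them were below every Dp16 mouse. Their SD was 0.752 CPM against 3.02 in WT and 3.11 in Dp16. Against Dp16 the log2 difference of Phlda3 was -0.21 ± 0.10 (SE), with an edgeR unadjusted p of 0.0529 and an adjusted p of 0.481.

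Eda2r encodes a receptor of the TNF receptor family for ectodysplasin A2, and its gene lies on chromosome X. It was close to the limit of these libraries, with 8 to 35 counts each, for which counting alone gives a coefficient of variation of 23.9%. CPM ran from 0.256 to 0.620 in WT and 0.367 to 0.785 in Dp16, and the Dp16_2xIFNRs values were 0.388, 0.567, 1.05, 0.381 and 1.12. The Dp16_2xIFNRs values of replicates 3 and 5 exceeded every other mouse, and the remaining 3 were inside the WT range. The log2 difference from WT was 0.63 ± 0.33 (SE; edgeR adjusted p = 0.332), and 0.35 without replicate 3.

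Between females and males, fitted in the same model, 0 of 9 genes were called, against 0.0685% of all tested genes, and 0 of 9 had an unadjusted p under 0.05 (background 3.26%). DESeq2 and limma-voom gave the same counts. Cdkn1a had the largest fitted difference, 0.30 ± 0.18 higher in females (log2, SE; edgeR unadjusted p = 0.103, adjusted p = 1.00). That of Eda2r was 0.15 ± 0.27 and that of Ccng1 -0.053 ± 0.045.

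Levels between genes were compared per length, in the deposited RPKM (reads per kilobase and per library size). As means over 17 mice, Bax was at 29.1 ± 2.40 (SD) and Ccng1 at 25.3 ± 1.46, followed by Mdm2 at 15.8 ± 1.68 and Phlda3 at 14.4 ± 2.00. Cdkn1a was at 5.05 ± 1.76, Sesn2 at 4.73 ± 0.478, Bbc3 at 3.80 ± 0.753, Trp53inp1 at 3.47 ± 0.579 and Eda2r at 0.115 ± 0.0497. Bax and Ccng1 overlapped in range, as did Mdm2 and Phlda3, and as did Cdkn1a, Sesn2, Bbc3 and Trp53inp1. The steps from Ccng1 to Mdm2, from Phlda3 to Cdkn1a and from Trp53inp1 to Eda2r were larger than the spread over mice.

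Within genotypes, 2 of the 36 pairs of these genes varied together from mouse to mouse beyond the test's threshold. Each log2 CPM was taken as its deviation from the genotype mean, and all 36 pairs were correlated over 17 mice, with 100000 permutations within genotypes. Cdkn1a and Trp53inp1 rose and fell together, with r = 0.750 and rho = 0.784 (permutation p = 0.0017 and 0.00118; adjusted p = 0.0306 and 0.0212). Ccng1 ran against Trp53inp1, with r = -0.725 and rho = -0.804 (adjusted permutation p = 0.0133 and 0.00576). Without the 2 mice farthest from the median of the first gene, these r were 0.650 and -0.689. Bbc3 passed with none of the others; its r ranged from -0.422 with Ccng1 to 0.199 with Sesn2.

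**Figure D4:**
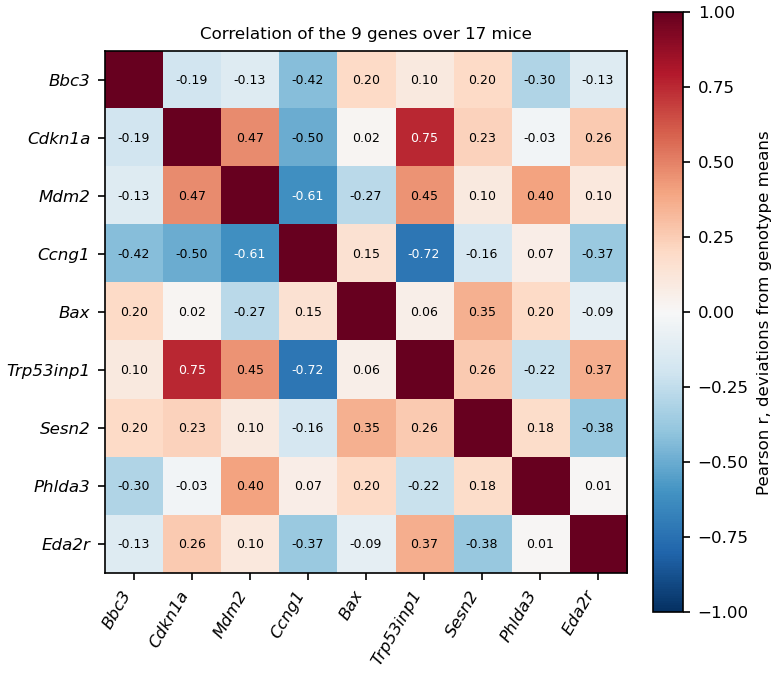
Pearson r over 17 mice for each pair of the 9 genes, from deviations of log2 CPM from the genotype mean, with the value in each cell and colour from -1 (blue) to 1 (red); the diagonal is 1 by construction. Cdkn1a with Trp53inp1 (0.75) and Ccng1 with Trp53inp1 (-0.72) are the strongest pairs, and the row of Bbc3 holds no value beyond -0.42.

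Cdkn1a and Trp53inp1 also followed the mean of a list of genes that respond to glucocorticoid hormones. Cdkn1a is itself known to respond to them, so the list mean was taken over the 12 other genes, among them Fkbp5, a chaperone partner of the glucocorticoid receptor, Tsc22d3 (GILZ), the kinase gene Sgk1 and the metallothionein genes Mt1 and Mt2. That mean (log2 CPM) was 5.25, 5.53 and 5.95 at its lowest, median and highest in WT, 5.36, 5.66 and 6.09 in Dp16 and 5.34, 5.53 and 5.87 in Dp16_2xIFNRs. The ranges of the genotypes overlapped. Over 17 mice and within genotypes, Trp53inp1 had r = 0.880 and rho = 0.877 with it (permutation p = 5.0e-05 and 8.0e-05; adjusted over 33 relations 0.00165 and 0.00264). Cdkn1a had r = 0.762 and rho = 0.752 (adjusted permutation p = 0.0285 and 0.0320). The single genes differed: Cdkn1a had r = 0.787 with Tsc22d3 but 0.018 with Mt1 and 0.217 with Mt2, and Trp53inp1 had r = 0.813 with Tsc22d3 and 0.146 with Mt1. Ccng1 ran the other way, with r = -0.604 and rho = -0.676 (adjusted permutation p = 0.0456 and 0.0366). Without the 2 mice farthest from the median of the list, r was 0.870, 0.794 and -0.638. Within WT and within Dp16, with 6 mice each, r was 0.942 and 0.972 for Trp53inp1, 0.903 and 0.804 for Cdkn1a and -0.579 and -0.913 for Ccng1. Within the 5 Dp16_2xIFNRs mice, too few for a test, r was 0.633, 0.373 and -0.669 for Trp53inp1, Cdkn1a and Ccng1. Bbc3 had a pooled r of -0.126 (adjusted permutation p = 0.905), made up of r = -0.776 within WT, -0.099 within Dp16 and 0.875 within Dp16_2xIFNRs; whether these differ was not tested. The other 5 targets did not pass either. Ddit4, 1 of the 12 list genes, is also counted among the 40 further p53 targets below. It had r = 0.579 with Cdkn1a and 0.674 with Trp53inp1. Sex was not taken out of the deviations. With Cdkn1a included, 12 of the 13 list genes had a fitted difference above 0 in females against males. Over all tested genes, 50.7% were below 0 there. By edgeR, 0 of the 13 had an unadjusted p under 0.05 in that comparison.

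**Figure D5:**
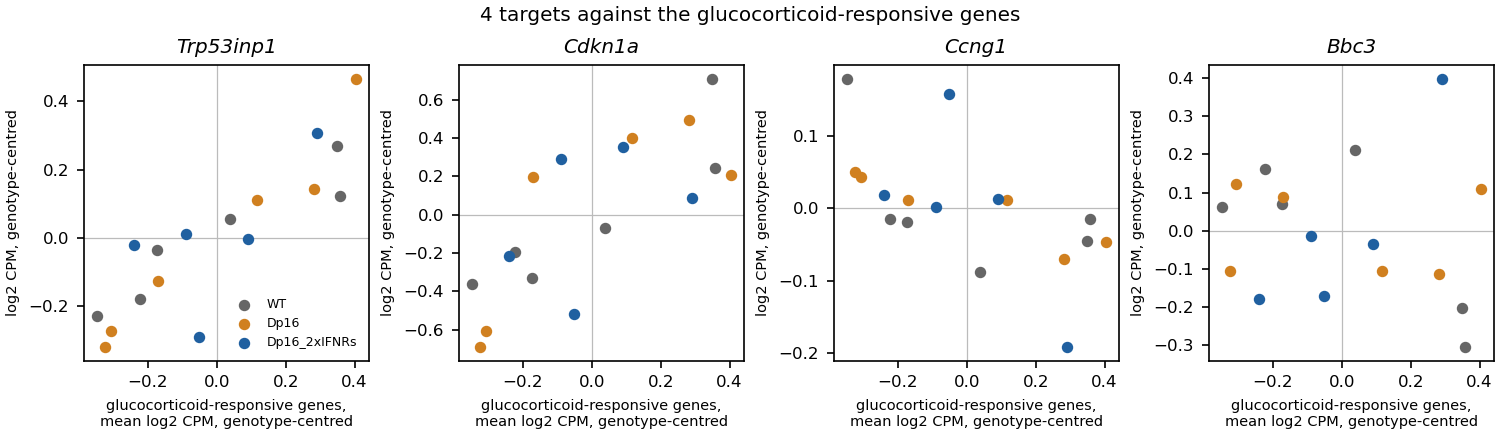
Trp53inp1, Cdkn1a, Ccng1 and Bbc3 (log2 CPM) against the mean of 12 glucocorticoid-responsive genes (log2 CPM), both as deviations from the genotype mean, 1 point per mouse and coloured by genotype. Trp53inp1 and Cdkn1a climb with the list (r = 0.880 and 0.762), Ccng1 declines (r = -0.604) and Bbc3 has a pooled r of -0.126, with points of WT and Dp16_2xIFNRs running in opposite directions (r = -0.776 and 0.875).

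With the list mean as a covariate beside sex, the Cdkn1a difference of Dp16 from WT was 0.47 ± 0.15 (log2, SE; edgeR unadjusted p = 0.00632, adjusted p = 0.255). For Cdkn1a in Dp16_2xIFNRs it was 0.14 ± 0.16 against WT and -0.33 ± 0.16 against Dp16, the latter with an edgeR unadjusted p of 0.0555 and an adjusted p of 0.339. Bbc3 differed by -0.26 ± 0.12 in Dp16 and -0.56 ± 0.12 in Dp16_2xIFNRs, both from WT. This fit was added after the relation had been seen. Of the 12 marker lists of cell types and regions, none passed with Cdkn1a or Bbc3 among the 33 relations. Those relations are within genotypes, so they do not address differences between genotypes.

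Of the genes that control p53, 19 of 20 were tested and none was called in either direction in any genotype comparison by edgeR. At an unadjusted p under 0.05, 1 was higher and 1 lower in Dp16 against WT, 2 were higher and 0 lower in Dp16_2xIFNRs against WT, and 4 were higher and 0 lower in Dp16_2xIFNRs against Dp16. Over all tested genes, the shares higher and lower were 5.61% and 3.97%, 8.44% and 8.60%, and 6.99% and 3.48% in the same order. Picked out by these values, the genes were Hipk2 and Trp53 in the first comparison, Atm and Hipk2 in the second, and Trp53, Mdm4, Chek2 and Crebbp in the third. DESeq2 and limma-voom called none of the 19 either. Trp53, which encodes p53, had means of 18.4 ± 1.248 (SD, n = 6) CPM in WT, 16.7 ± 0.953 (SD, n = 6) in Dp16 and 18.4 ± 1.32 (SD, n = 5) in Dp16_2xIFNRs, with overlapping ranges. Its log2 difference was -0.15 ± 0.065 (SE) in Dp16 against WT (edgeR adjusted p = 0.495) and 0.15 ± 0.068 in Dp16_2xIFNRs against Dp16 (edgeR adjusted p = 0.474). The highest gene of the list in Dp16_2xIFNRs against Dp16 was Chek2, a DNA damage kinase, at 0.40 ± 0.17. The lowest was Cop1, a ubiquitin ligase, at -0.083 ± 0.054. The median of the list was 0.11 there, beside -0.0073 over all genes.

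All 40 further p53 targets were tested, and edgeR and limma-voom called none in any genotype comparison. DESeq2 called 1, Rrm2b, higher in Dp16 than in WT. At an unadjusted p under 0.05, 5 were higher and 1 lower in Dp16 against WT, 3 higher and 5 lower in Dp16_2xIFNRs against WT, and 2 higher and 2 lower in Dp16_2xIFNRs against Dp16. The shares over all tested genes are those given for the control genes. Rrm2b, the p53-inducible subunit of ribonucleotide reductase, and Abhd4 were among the higher ones in both genotypes against WT, picked out after their values were seen. Rrm2b differed from WT by 0.24 ± 0.061 in Dp16 (log2, SE; edgeR adjusted p = 0.109) and by 0.20 ± 0.064 in Dp16_2xIFNRs (edgeR adjusted p = 0.140). The lower ones in Dp16_2xIFNRs against WT were Pmaip1, Triap1, Ninj1, Ei24 and Zfp365. In Dp16_2xIFNRs against Dp16 the higher ones were Ddb2 (0.39 ± 0.14) and Pidd1 (0.49 ± 0.21). The lower ones there were Sesn1 (-0.17 ± 0.061) and Zfp365 (-0.21 ± 0.084). The medians were -0.018, -0.028 and -0.038 in the order of the comparisons. Pmaip1, which encodes NOXA, the other BH3-only protein that p53 is best known to induce, was the lowest in Dp16_2xIFNRs against Dp16. Its lowest, median and highest CPM were 2.02, 2.73 and 3.52 in WT, 1.24, 2.51 and 3.62 in Dp16 and 1.05, 1.89 and 2.15 in Dp16_2xIFNRs. That is a log2 difference of -0.51 ± 0.27 (SE) from Dp16 (edgeR adjusted p = 0.515), and -0.29 without Dp16 replicate 6. Against WT it was -0.75 ± 0.26, with an edgeR unadjusted p of 0.0111 and an adjusted p of 0.170. The highest was Gtse1, a G2 and S phase protein, at 0.49 ± 0.29. It was low, at 0.254 to 1.08 CPM, and its difference ran from 0.092 to 0.61 over 30 alternatives.

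The BCL2 family and the caspase genes gave no calls in any genotype comparison by edgeR, with Bbc3 left out in those of Dp16_2xIFNRs. Of the BH3-only genes, 7 of 8 passed the filter, Bbc3 among them. So did 3 of 3 effectors, 4 of 5 survival genes and 9 of 9 caspase activation genes. Over these lists without Bbc3, unadjusted p was under 0.05 for 2 higher and 1 lower gene in Dp16 against WT, 1 higher and 3 lower in Dp16_2xIFNRs against WT, and 1 higher and 2 lower in Dp16_2xIFNRs against Dp16. Over all tested genes the shares higher and lower were 5.61% and 3.97%, 8.44% and 8.60%, and 6.99% and 3.48%. With Bbc3 left out, DESeq2 and limma-voom called none of them. Among the BH3-only genes other than Bbc3, the extremes in Dp16_2xIFNRs against Dp16 were Pmaip1, above, and Bad at 0.033 ± 0.070. Of the effectors other than Bax (-0.064 ± 0.075), Bok was at -0.0091 ± 0.10 and Bak1 at 0.038 ± 0.074. Of the survival genes, Bcl2l1, which encodes BCL-XL, was at -0.16 ± 0.071 (edgeR unadjusted p = 0.0349, adjusted p = 0.453) and Mcl1 at 0.0021 ± 0.063. Of the caspase activation genes, Diablo, which encodes SMAC, was the highest at 0.25 ± 0.14. The genes counted by unadjusted p in Dp16_2xIFNRs against Dp16 were Htra2, higher, and Bcl2l1 and Bcl2l2, lower. Htra2 was at 0.17 ± 0.071 (edgeR unadjusted p = 0.0308, adjusted p = 0.445). Bcl2l2 was at -0.16 ± 0.046 (edgeR unadjusted p = 0.00332, adjusted p = 0.433).

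Paralogs of the 9 genes, 12 of 13 tested, also gave no call by edgeR, DESeq2 or limma-voom, and at most 1 in each direction had an unadjusted p under 0.05 in any genotype comparison. Mdm4, whose product binds and restrains p53 beside MDM2, was the highest in Dp16_2xIFNRs against Dp16 at 0.39 ± 0.14 (edgeR unadjusted p = 0.0143, adjusted p = 0.433). Its CPM ran from 54.5 to 95.2 in WT, 52.7 to 77.5 in Dp16 and 60.7 to 104.7 in Dp16_2xIFNRs. Edar was the lowest at -0.46 ± 0.55. It too was low, at 0.031 to 0.72 CPM, and its difference ran from -0.78 to -0.036 over 30 alternatives. Of 13 genes of the glucocorticoid response, Cdkn1a among them, none was called by the 3 tools. By edgeR, only Cdkn1a had an unadjusted p under 0.05, higher in Dp16 against WT and lower in Dp16_2xIFNRs against Dp16. The shares over all tested genes are those given for the BCL2 family. Per1 at 0.11 ± 0.14 and Plin4 at -0.53 ± 0.57 were the extremes in Dp16_2xIFNRs against Dp16. Of 15 genes of the integrated stress response, none was called by the 3 tools, and 3 higher, 2 higher and 2 lower, and 0 had an unadjusted p under 0.05 in the order of the comparisons (the shares over all tested genes are those above), with Hspa5 at 0.16 ± 0.13 and Psat1 at -0.15 ± 0.081.

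The FOXO factors and targets were included because FOXO proteins are also known to induce Bbc3. Of 13 tested, 1 was called, Foxo4, lower in Dp16_2xIFNRs than in WT, where 0.342% of all tested genes were called lower. At an edgeR unadjusted p under 0.05, 2, 3 and 1 were lower in the order of the comparisons, and 0 higher in each. The shares over all tested genes are those given for the control genes. The list medians were -0.033, -0.11 and -0.073, beside -0.0059, 0.0043 and -0.0073 over all genes. The lowest, median and highest CPM of Foxo4 were 23.8, 28.9 and 31.1 in WT and 22.5, 23.5 and 26.3 in Dp16. In Dp16_2xIFNRs they were 21.3, 21.6 and 23.8, so the top of that group touched the bottom of WT. The log2 difference from WT was -0.33 ± 0.072 (SE; edgeR adjusted p = 0.0346). Over 31 alternatives its adjusted p ran from 0.00211 to 0.106, and in 10 of them it did not pass: from only those 2 groups, on RPKM with either pseudocount, and without WT replicate 1, 3 or 5 or Dp16_2xIFNRs replicate 2, 3, 4 or 5. DESeq2 and limma-voom called Foxo4 as well. In Dp16 it was -0.22 ± 0.068 from WT (edgeR adjusted p = 0.236).

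Among the genes most like Bbc3 over the 17 libraries, by Pearson r of log2 CPM among tested genes averaging 1 CPM or more, were Marcksl1 (r = 0.861), Tle1 (0.831), Zfp30 (0.820) and Rrm2 (0.818). As deviations from genotype means these r were 0.627, 0.652, 0.581 and 0.516. They come from the top of a ranking of all such genes, and the genotype differences enter the first values, so they are a description with no test. Marcksl1 had means of 78.8, 69.9 and 60.7 CPM in WT, Dp16 and Dp16_2xIFNRs. Among the other 8 p53 targets the highest r with Bbc3 was that of Bax, 0.482, and the lowest that of Eda2r, -0.396, again with the genotype differences included. As deviations from genotype means they were 0.198 and -0.132.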

How the data were processed

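Hippocampus poly(A) RNA of 17 mice was prepared with a strand-specific kit and read as 150-base pairs, per the labels' protocols. HISAT2 2.1.0 and HTSeq 0.6.1, with GRCm38 as the genome build, are named in the submitters' processing notes, beside SAMtools 1.5, FastQC 0.11.5 and bcl2fastq; the strand setting is not given in the sources used here. The authors deposited whole-number counts per gene and RPKM, whose gene lengths are not defined there. Depth was 30382648 to 33148281 counts, so precision at low counts is limited by counting error. Labels number the samples and give each an identifier, sex and age; p-values measure the spread between these samples.

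The members and lists were chosen with earlier results of these data known. Counts were fitted in edgeR 4.0.16 (R 4.3.3): filterByExpr (minimum count 10), TMM scaling, genotype plus sex over all 17 libraries, quasi-likelihood tests, Benjamini-Hochberg adjustment over 18983 genes, called under 0.05. CPM use TMM library sizes; log2 CPM add a prior count of 2. RPKM served for levels between genes and, with 0.1 or 1 added, for an alternative in limma 3.58.1. DESeq2 1.42.0 and limma-voom were further alternatives, with other filters, covariates and libraries. Correlations used 100000 permutations within genotypes. Scripts were tested on simulated data. From each list, genes called in a genotype comparison were named, otherwise the highest and lowest in Dp16_2xIFNRs against Dp16; all 9 members, Trp53 and the 5 genes most like Bbc3 were always to be named; 2 genes that this rule selects are not reported here. Sequences are RefSeq's, GRCm38.p6. Of all list genes, Cdkn2a, Bik, Bcl2l10 and Phlda2 did not pass the filter.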

Additional observations from a re-analysis of the deposited data

Results flagged for a closer look

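The 9 genes in 3 genotypes make 27 groups of 5 or 6 mice, and in 3 of them 1 mouse stood apart from the others by Dixon's test at 95%; chance flags about 1 in 20 groups. Bbc3 in Dp16_2xIFNRs replicate 2 was 7.27 CPM, with the other 4 mice at 4.86 to 5.45. Ccng1 in WT replicate 6 was 97.5 CPM, with the other 5 at 81.0 to 85.2; this library is 1 of the 3 low in choroid plexus markers, whose part in the value was not tested. Sesn2 in Dp16 replicate 1 was 13.7 CPM, with the other 5 at 16.3 to 17.7.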

How the results depend on the processing

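No member was called under any alternative in a comparison in which it was tested. Bbc3 was chosen for its level in Dp16_2xIFNRs and not tested there, so its values in that genotype are a description. Its direction was the same in all 31 alternatives of each genotype comparison. The log2 fold change was -0.33 to -0.23 in Dp16 against WT, -0.67 to -0.43 in Dp16_2xIFNRs against WT and -0.39 to -0.20 in Dp16_2xIFNRs against Dp16. Counts over all genes moved more. DESeq2 called 217, 633, 6 and 20 genes in Dp16 against WT, Dp16_2xIFNRs against WT, Dp16_2xIFNRs against Dp16 and females against males. In Dp16_2xIFNRs against WT, 416 were called with no filter, 114 from only those 2 groups, 474 at an adjusted p under 0.1, and 101 to 517 when 1 mouse was left out (101 without Dp16_2xIFNRs replicate 3, 517 without replicate 1). With no filter 14 were called in Dp16_2xIFNRs against Dp16. With the replicate number as a block the counts were 98, 143, 4 and 7. Same-numbered libraries of different groups had a mean correlation of deviations of 0.0772 (-0.216 to 0.471), and 5 of 17 correlated best with their own number, so the numbers were not taken to pair the mice.

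Small differences changed sign, and the cause was not tested. Without the 3 libraries low in choroid plexus markers, Trp53inp1 in Dp16 against WT was -0.12, Cdkn1a in Dp16_2xIFNRs against WT -0.0074, Plin4 in Dp16_2xIFNRs against Dp16 0.064 and Eda2r in females against males -0.035. With the glucocorticoid mean as a covariate, Trp53inp1 in Dp16 against WT was -0.044, Mdm2 in Dp16_2xIFNRs against WT 0.0040 and Plin4 0.18. In Dp16_2xIFNRs against WT, Mdm2 was 0.0028 with sex and age and 0.0043 and 0.0038 on RPKM plus 0.1 and plus 1, and Trp53 (-0.00069) was 0.0064 with a filter of 1 CPM, 0.00034 with sex and age and 0.0089 and 0.0081 on RPKM. In Dp16_2xIFNRs against Dp16, Bok was 0.0042 with sex and age and 0.011 (plus 0.1 and plus 1 alike) on RPKM, and Mcl1 was -0.00072 in limma-voom, -0.0057 with no filter and -0.027 with the replicate block.

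Leaving out 1 mouse, signs changed within -0.093 to 0.096 for Trp53inp1 and -0.033 to 0.080 for Phlda3 in Dp16 against WT. In Dp16_2xIFNRs against WT the ranges were -0.11 to 0.23 for Cdkn1a, -0.064 to 0.037 for Mdm2, -0.0037 to 0.084 for Ccng1 and -0.035 to 0.029 for Trp53. In Dp16_2xIFNRs against Dp16 they were -0.11 to 0.047 for Sesn2, -0.0030 to 0.062 for Bak1, -0.046 to 0.092 for Bok, -0.036 to 0.037 for Mcl1 and -0.0038 to 0.21 for Per1. The 5 correlations named kept their sign and an unadjusted permutation p of at most 0.0460 over 19 alternatives chosen after seeing the data. Eda2r has no value under the filter of 1 CPM in 5 libraries, and its 8 to 35 counts limit its precision.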
